A study of Mus musculus with 6 samples.

Results

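The genes described here are inhibitory receptors and Tox, 9 of the 32285 genes in the count tables: Pdcd1, Havcr2, Lag3, Tigit, Ctla4, Entpd1, Tox, Cd160 and Btla. They were matched by symbol, and each symbol matched 1 gene. The libraries are 10x Genomics single-cell RNA-seq of CD45+ cells enriched with magnetic beads from B16-F10 melanoma tumors grown in female C57BL/6 mice aged 6 to 10 weeks. Mice of the αPD-1 group (3 samples) received 150 µg of the antibody 29F.1A12 against PD-1 3 times a week from day 7 after grafting. Mice of the αPD-1 + corin group (3 samples) received the same antibody and daily 200 µg of corin, an inhibitor of the CoREST complex, from day 6. All mice therefore had PD-1 blockade, and no sample without it was analysed here. The labels give 10 mice per treatment group and do not say which mice a sample holds, so the spread between samples may be partly technical.

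PD-1, TIM-3, LAG-3, TIGIT, CTLA-4, CD160 and BTLA, the products of Pdcd1, Havcr2, Lag3, Tigit, Ctla4, Cd160 and Btla, are surface receptors that dampen lymphocyte activation when they meet ligands on other cells. Entpd1 encodes CD39, an enzyme that starts the breakdown of extracellular ATP to adenosine. Tox encodes a nuclear factor linked to the lasting program of exhausted T cells, in which several of these receptors are carried together. Single receptors also appear on recently activated cells, on Foxp3+ regulatory T cells and on cells other than T cells, so the cell that carries the transcript matters.

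In GRCm39 with the GENCODE vM39 annotation, Pdcd1 lies on the minus strand of chromosome 1 (93966027 to 93980312) and Ctla4 on its plus strand (60926159 to 60954991). Tigit (43469100 to 43484509, minus) and Btla (45044475 to 45078033, plus) share chromosome 16. Havcr2 lies on chromosome 11 (46345673 to 46374149, plus), Lag3 on chromosome 6 (124881320 to 124888765, minus), Entpd1 on chromosome 19 (40600810 to 40731585, plus) and Cd160 on chromosome 3 (96706079 to 96736667, minus). Tox has the longest span of the 9 genes, 305292 bases on chromosome 4 (6686353 to 6991644, minus), of which exons cover 2.54%.

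The tables hold 52899 barcodes, and the total per sample ran from 52281422 to 84276739 unique molecular identifiers (UMIs), each standing for 1 captured transcript. After limits on genes and mitochondrial share and removal of doublets, 28865 cells remained. Any pair of libraries shared 10 to 32 barcodes. With αPD-1 alone the samples gave 822, 839 and 616 T cells, and with corin 168, 307 and 1214, so the third corin sample holds most T cells of its group. Within them, CD8 T cells had a UMI of Cd8a or Cd8b1 and none of Cd4 or Foxp3 (994 and 1061 cells in the 2 groups), CD4 T cells had Cd4 alone (253 and 70), and Foxp3+ T cells had Foxp3 without Cd8a or Cd8b1 (104 and 79). The other 926 and 479 T cells met no gate. Mixed clusters, in which many cells had markers of both T and B cells or whose T or NK cells were led by markers of another lineage (1973 and 630 cells), entered no lineage, and they held 32.9% to 37.0% of the Pdcd1, Lag3, Tigit, Ctla4, Tox and Cd160 UMIs of immune cells with αPD-1 and 12.6% to 16.0% with corin, as means of 3 samples. NK cells (198 and 249), B cells (2566 and 107) and myeloid cells (4249 and 11390) were taken from clusters. All 8 T cell markers were above 20 CPM in each gated T lineage, as were all 9 NK markers in NK cells and all 8 B cell markers in B cells. NK cells also had all 8 T cell markers above that level, at a summed median of 777 CPM against 4093 in CD8 T cells.

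Levels are UMIs of the gene divided by all UMIs of the lineage in a sample and scaled to counts per 1e+06 (CPM). Pdcd1, the target of the antibody given to every mouse, was highest in CD8 T cells, at 197, 296 and 232 CPM with αPD-1 alone against 240, 347 and 341 CPM with corin. The groups overlapped. In Foxp3+ T cells it was at 101, 172 and 182 CPM against 198, 199 and 204 CPM, without overlap but on 60 to 66 UMIs per group. B cells and melanoma cells stayed under 5 CPM in every sample. Havcr2 in CD8 T cells stood at 129, 145 and 140 CPM with αPD-1 and at 87.5, 211 and 208 CPM with corin, the first corin sample lying below all others. Lag3, whose product binds MHC class II, was at 122, 158 and 82.1 CPM against 65.6, 169 and 191 CPM in the same cells. Again the first corin sample was the lowest of the 6.

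Tigit and Ctla4, receptors that compete with activating partners for shared ligands, were highest in Foxp3+ T cells. There Ctla4 reached 1450, 1263 and 828 CPM with αPD-1 alone and 1089, 1349 and 1365 CPM with corin. Tigit was at 386, 402 and 414 CPM against 528, 402 and 571 CPM. The groups overlapped for both genes. Tox was spread more evenly over T cells: in CD8 T cells it was at 422, 655 and 701 CPM against 394, 573 and 613 CPM, and in Foxp3+ T cells at 499, 389 and 530 CPM against 528, 605 and 448 CPM. NK cells carried Tox at 141 to 279 CPM and Tigit at 91.5 to 150 CPM. Cd160 had its highest mean in NK cells, at 143, 115 and 91.5 CPM against 89.8, 121 and 65.6 CPM, followed by CD8 T cells, at 60.7, 65.1 and 46.4 CPM against 98.4, 74.4 and 86.8 CPM. The ranges of NK and CD8 T cells were apart with αPD-1 alone and overlapped with corin.

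Entpd1 and Havcr2 were not confined to T cells. Entpd1 was at 101 to 153 CPM in monocytes and macrophages and at 205 to 324 CPM in neutrophils, against 71.1 to 117 CPM in CD8 T cells. Havcr2 in monocytes and macrophages was at 49.5, 68.2 and 72.6 CPM with αPD-1 and 25.9, 34.8 and 51.7 CPM with corin. T cell marker UMIs were present in monocytes and macrophages too, and at the ratio seen in the T cells of the same sample they would bring at most 5.77 CPM of Havcr2 and 3.41 CPM of Entpd1 there. In neutrophils (46 cells with αPD-1 and 1842 with corin) the same ratio would bring up to 15.9 and 31.6 CPM of Entpd1 and up to 22.3 and 70.2 CPM of Havcr2 in the 2 groups. For Pdcd1, Tigit, Ctla4 and Tox the same arithmetic came close to the level observed in monocytes and macrophages, for example 3.27 to 4.30 CPM of Pdcd1 against 1.71 to 5.11 CPM observed in the αPD-1 samples.

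**Figure D1:**
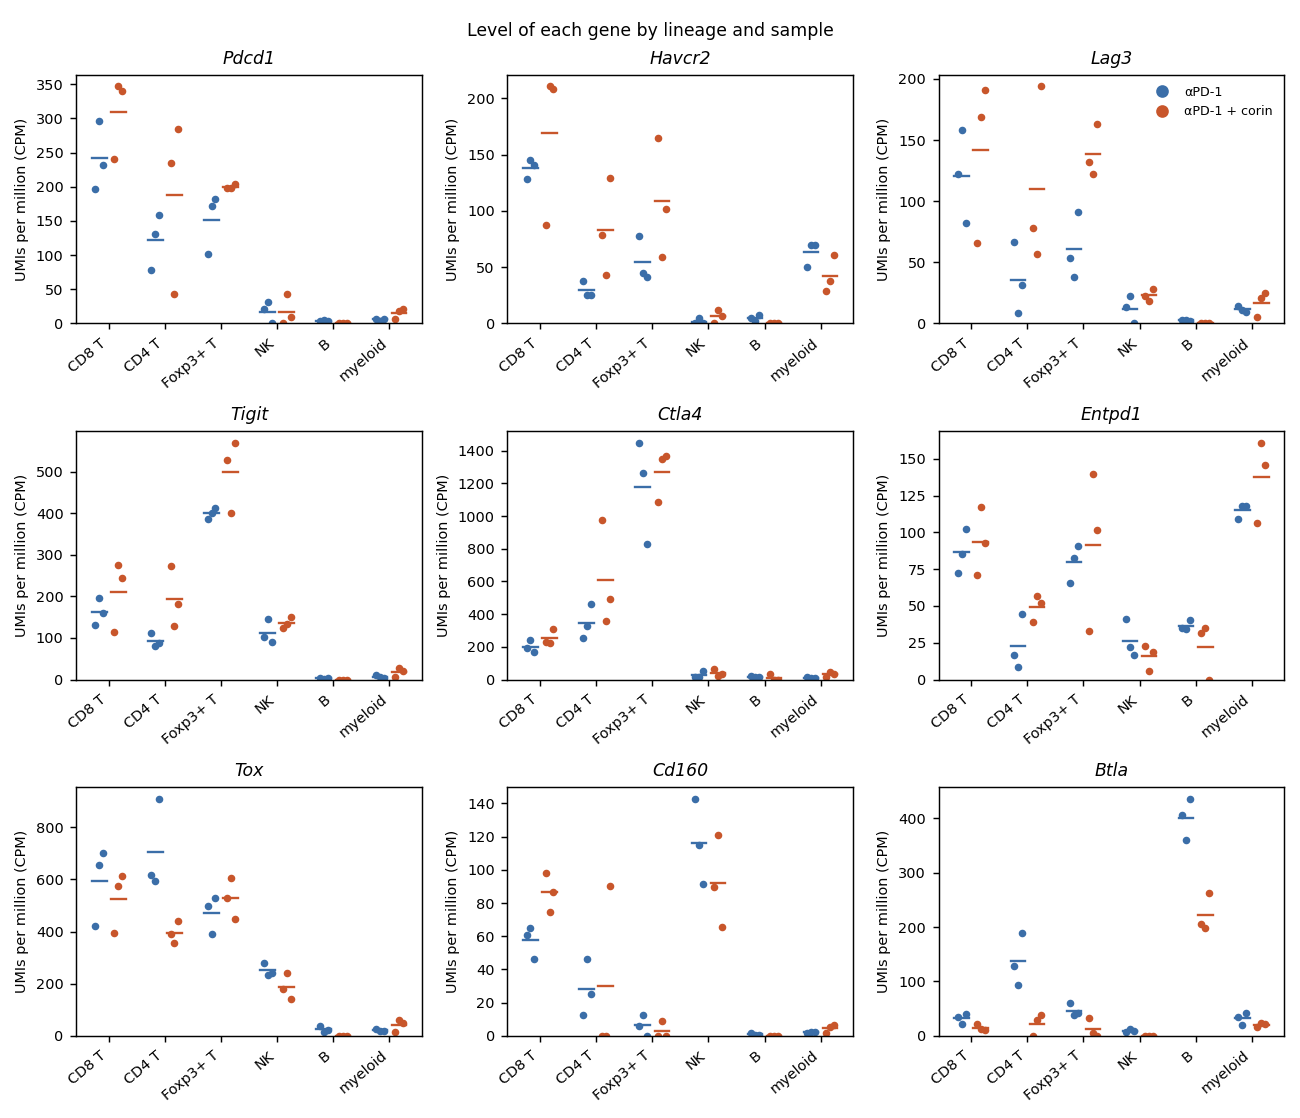
Level of each of the 9 genes in counts scaled to library size (CPM, linear axis, own scale per gene) in 6 lineages, with 1 point per sample, αPD-1 in blue, αPD-1 + corin in orange and a bar at the mean of 3 samples. The means of Ctla4 and Tigit are highest in Foxp3+ T cells, that of Cd160 in NK cells and that of Btla in B cells.

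The gated T lineages were compared with each other in 1 fit of the 18 sums with the sample as a block (edgeR quasi-likelihood test, Benjamini-Hochberg adjustment over 3540 genes). Of the 8 members tested, Cd160 is given as a description in Foxp3+ T cells, and 4 of the others differed between Foxp3+ T and CD8 T cells, where 15.8% of all genes passed. Ctla4 was 5.18-fold higher in Foxp3+ T cells (log2 difference 2.37 ± 0.18 SE) and Tigit 2.17-fold higher (1.12 ± 0.17), each in 6 of 6 samples. Havcr2 was 2.54-fold higher in CD8 T cells and Pdcd1 1.70-fold. Cd160 was at a mean of 72.0 CPM on 672 UMIs in CD8 T cells against 4.62 CPM on 5 UMIs in Foxp3+ T cells, 3 of whose 6 samples were at 0, so it reached the filter on low counts only through the other lineages. Against CD4 T cells, where 13.8% of genes passed, Foxp3+ T cells had more Tigit (3.44-fold) and Ctla4 (2.87-fold). Entpd1 was 2.96-fold higher in Foxp3+ T cells, but it reached the filter on low counts only through the lineages other than CD4 T. In CD4 T cells it rests on 13 UMIs with αPD-1 and 9 with corin, so it is given as a description. Between CD8 T and CD4 T cells, where 19.7% passed, Pdcd1 (1.99-fold) and Tigit (1.58-fold) were higher in CD8 T cells. Havcr2 (3.51-fold), Entpd1 (3.17-fold), Lag3 (2.36-fold) and Cd160 (2.11-fold) were also higher there, which is given as a description. In CD4 T cells on their own they were under the filter on low counts. They had 19 and 15, 13 and 9, 23 and 21, and 18 and 7 UMIs there with αPD-1 and with corin. Ctla4 was 1.81-fold higher in CD4 T cells. Tox did not pass in any of the 3 comparisons, with log2 differences of -0.27 ± 0.17, -0.26 ± 0.19 and 0.01 ± 0.17, and Btla was under the filter on low counts. Of these calls, Tigit between CD8 T and CD4 T cells held in 7 of 11 alternatives. Among the differences given as descriptions, Cd160 between CD8 T and CD4 T cells passed in 6 of 10 and Lag3 in 9 of 11.

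The question of the treatment comparison is whether adding corin to αPD-1 moved these genes. Over all T cells, 3 members rose and 1 fell among the 9 tested, where 18.4% of 10012 genes passed, 6.88% upward and 11.5% downward (edgeR quasi-likelihood test, Benjamini-Hochberg adjusted p under 0.05). The median log2 change of the members was 0.60, beside 0.00 over all genes. Havcr2 was 1.68-fold higher (log2 change 0.75 ± 0.22 SE, adjusted p = 0.029), Tigit 1.65-fold (0.73 ± 0.18, adjusted p = 0.013) and Cd160 1.68-fold (0.74 ± 0.23, adjusted p = 0.038). The ranges of the groups overlapped for all 3 of these genes, and the first corin sample had the lowest Havcr2 of the 6. Btla was 4.52-fold lower (-2.18 ± 0.29, adjusted p = 0.00034), without overlap. Pdcd1 (0.60 ± 0.21), Lag3 (0.73 ± 0.27), Ctla4 (0.40 ± 0.14), Entpd1 (0.39 ± 0.18) and Tox (-0.28 ± 0.16) did not pass.

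The make-up of the T cells differed between the groups at the same time. T cells of no gate had Tigit at 60.6 to 88.3 CPM with αPD-1 and 107 to 263 CPM with corin, and Tox at 534 to 925 and 338 to 420 CPM, without overlap in either gene, which was not tested. Clusters named Tn-like from markers of naive T cells (such as Lef1, Ccr7 and Tcf7), built without the 9 genes, held 42.05% to 52.3% of T cells with αPD-1 alone and 1.24% to 5.36% with corin. These clusters had few UMIs of the receptors: in the larger one, led by Dapl1 (716 cells), Pdcd1 was at 14.2 CPM, Havcr2 at 1.18 CPM and Lag3 at 5.90 CPM. Btla was at 66.0 CPM there. The other, led by Auts2 (362 and 9 cells by group), had a median ribosomal protein share of 1.19% of UMIs. Cells under 5% made up 12.9% to 20.8% of all T cells with αPD-1 and 1.57% to 3.91% with corin, and 5.09% to 10.3% against 0 to 1.44% of CD8 T cells. Without them Havcr2, Tigit and Btla were called over all T cells (log2 changes 0.76, 0.64 and -2.01), and Cd160 was not (0.63, adjusted p = 0.083). Outside the Tn-like clusters the level of Pdcd1 was 248 ± 53.0 CPM with αPD-1 and 248 ± 72.7 CPM with corin (SD, n = 3 each). Havcr2 was at 132 ± 9.86 against 134 ± 57.9 CPM and Lag3 at 118 ± 30.5 against 119 ± 64.0 CPM. No rise passed in these cells: the log2 changes were 0.23 for Havcr2, 0.24 for Tigit and 0.37 for Cd160, with adjusted p of 0.72, 0.62 and 0.54 by edgeR. Btla remained lower (-1.86, adjusted p = 0.019). Over all T cells, leaving out the third corin sample ended the calls of Havcr2 (0.38, adjusted p = 0.26) and Cd160 (0.40, adjusted p = 0.35). Leaving out the first αPD-1 sample ended those of Havcr2, Tigit and Cd160 (adjusted p = 0.14, 0.082 and 0.15), as did leaving out the third (0.093, 0.053 and 0.14). DESeq2 called Tigit (adjusted p = 0.0060) and not Havcr2 (0.067) or Cd160 (0.10), and with the replicate number as a block Cd160 was not called (0.060).

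**Figure D2:**
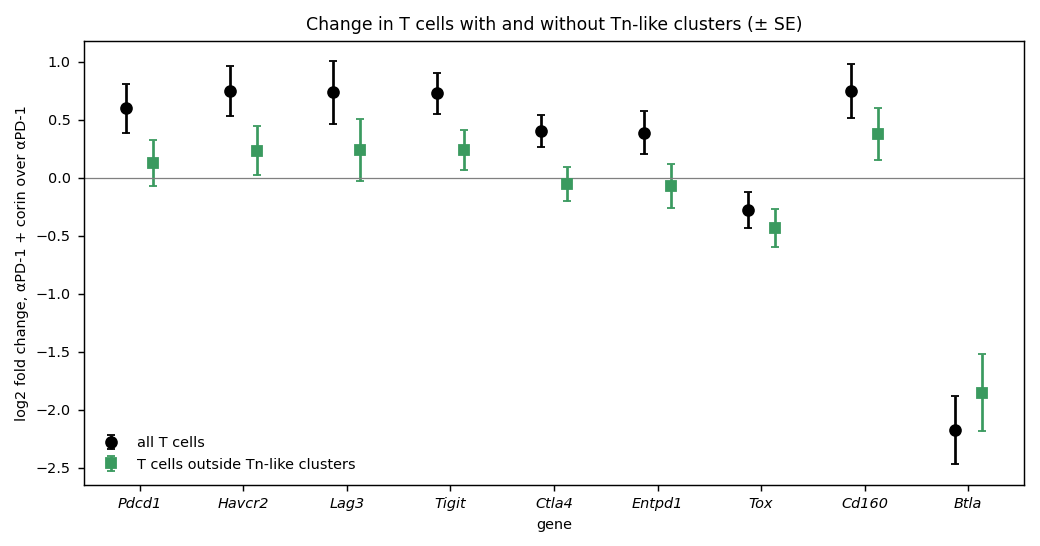
Log2 fold change of each gene, αPD-1 + corin over αPD-1, in all T cells (black circles) and in T cells outside the Tn-like clusters (green squares), with bars of ± 1 SE from the edgeR fit on 3 samples per group. The rises of Havcr2, Tigit and Cd160 shrink from 0.75, 0.73 and 0.74 to 0.23, 0.24 and 0.37, while Btla goes from -2.18 to -1.86.

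In CD8 T cells, where 6.78% of 8375 genes passed, Btla was the only one of the 9 tested members that did, at 34.02, 21.89 and 39.96 CPM with αPD-1 and 21.87, 12.6 and 10.1 CPM with corin (no overlap, 2.59-fold lower, log2 change -1.37 ± 0.31 SE, adjusted p = 0.017). The other receptors and Entpd1 had log2 changes of 0.23 to 0.57 and Tox of -0.08 ± 0.19. The Btla call did not hold by DESeq2 (adjusted p = 0.17), outside the Tn-like clusters (-0.89, adjusted p = 0.58), or without the third corin sample (-1.04, adjusted p = 0.22), the first αPD-1 sample (0.084) or the third (0.090). B cell marker UMIs in CD8 T cells were at 199 to 307 CPM with αPD-1 and 4.33 to 103 CPM with corin, and at the ratio of the sample's B cells would bring 6.95 to 12.8 CPM and 0.14 to 2.06 CPM of Btla. Among CD8 T cells without a UMI of B cell, macrophage or melanoma markers, the change was -1.20 (adjusted p = 0.039).

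In CD4 T cells 5 of the 9 members were tested, where 8.09% of 2175 genes passed, and Tox passed as lower. Btla reached the filter on low counts only through the αPD-1 samples, where it is higher (83 UMIs), so its change is given as a description and not counted as a call. At 128, 92.6 and 189 CPM in those samples, it had 0, 28.4 and 38.8 CPM in the corin samples, on 5 UMIs in all (log2 change -2.21 ± 0.58 SE). Tox was at 617, 593 and 909 CPM against 391, 356 and 440 CPM (-0.87 ± 0.26, adjusted p = 0.044). Every corin sample lay below every αPD-1 sample for both genes. Outside the Tn-like clusters the Tox change was -1.17 (adjusted p = 0.025), and among cells with at least 5% of UMIs in ribosomal protein genes it was -0.58 (adjusted p = 0.22). Leaving out any 1 of the 6 samples ended the Tox call (adjusted p = 0.052 to 0.17 by edgeR), as did DESeq2 (0.069). For Btla the adjusted p by edgeR was above 0.05 without the first, the second or the third corin sample (0.057, 0.098 and 0.065), as it was by DESeq2 (0.091). Without any 1 of the αPD-1 samples Btla did not reach the filter on low counts in these cells. Cells under that share made up 10%, 11.4% and 9.23% of CD4 T cells with αPD-1 alone and 7.69%, 3.85% and 3.23% with corin, 1 cell in each corin sample.

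None of the 7 members tested in Foxp3+ T cells passed, where 0.497% of 2616 genes did. The largest log2 change was that of Lag3, 1.12 ± 0.40 SE (adjusted p = 0.31 by edgeR), from 53.5, 38.3 and 91.1 CPM to 132, 122 and 163 CPM, and 1 member had an unadjusted p under 0.05, as did 245 of the 2616 genes. In the Treg-like cluster, a larger set of 470 cells called from Foxp3 and its companions, Btla was at 109, 82.1 and 99.6 CPM with αPD-1 and at 33.8, 17.8 and 16.9 CPM with corin (log2 change -2.23). It reached the filter on low counts only through the αPD-1 samples, where it is higher, so this is given as a description. The difference between the treatment effects in Foxp3+ T and CD8 T cells was tested directly, and none of the 9 members passed, where 0.136% of 4427 genes did (edgeR, smallest adjusted p of a member 0.70, none with an unadjusted p under 0.05, and none of the 4 with an adjusted p by DESeq2). For Cd160 (-0.47 ± 1.55 SE) and Btla (-1.54 ± 1.08) this test could show little. They had 3 and 2 and 21 and 2 UMIs in Foxp3+ T cells with αPD-1 and with corin.

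The level of Btla was highest in B cells in every sample. There it was at 406, 361 and 436 CPM with αPD-1 alone and 205, 198 and 262 CPM with corin, 2.02-fold lower (log2 change -1.01 ± 0.27 SE, adjusted p = 0.015), and it was the 1 of 4 tested members to pass, where 1.97% of 8026 genes did. The median log2 change of all genes in B cells was -0.18. The corin samples gave 48, 48 and 11 B cells and 35 Btla UMIs in all, and the call did not hold with the replicate number as a block (adjusted p = 0.11), without the first αPD-1 sample (0.057), without the first corin sample (0.13) or without the second (0.084). B cells held 46.1% ± 5.87 (SD, n = 3) of the Btla UMIs of immune cells with αPD-1 and 2.93% ± 1.18 with corin. Dendritic cells, at 91.7 to 137 CPM and 93.4 to 105 CPM, held 7.75% ± 0.32 and 49.9% ± 6.21. Mixed clusters held 31.4% ± 3.81 and 6.37% ± 4.48. The level in dendritic cells overlapped between the groups. B cell marker UMIs there, at the ratio of the sample's B cells, would bring 39.0 to 45.7 CPM of Btla with αPD-1 and 7.72 to 13.9 CPM with corin.

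**Figure D3:**
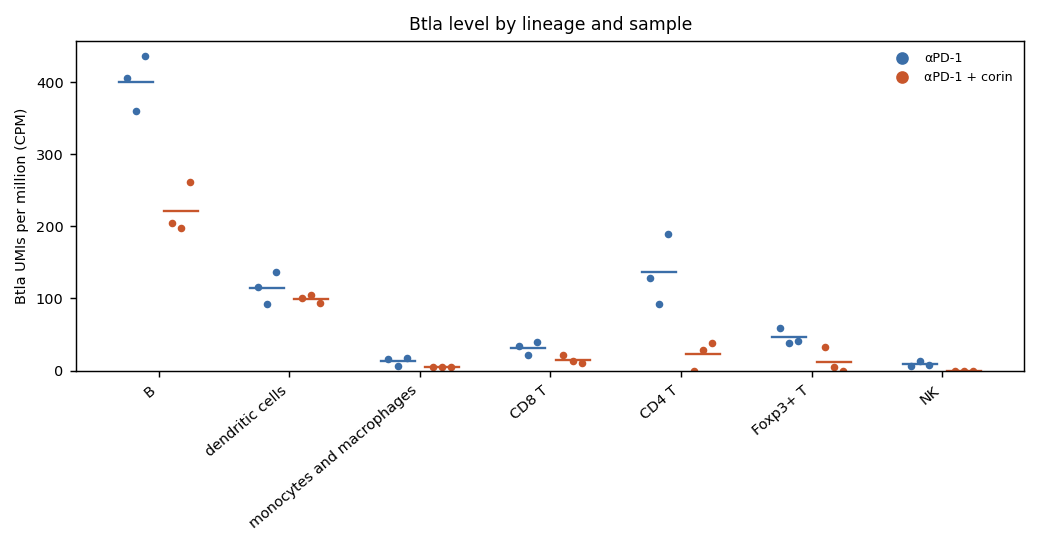
Btla level in counts scaled to library size (CPM, linear axis) in 7 lineages, with 1 point per sample, αPD-1 in blue, αPD-1 + corin in orange and a bar at the mean of 3 samples. B cells lie at 361 to 436 CPM with αPD-1 and at 198 to 262 CPM with corin, while dendritic cells overlap.

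In NK cells, where 0.998% of 2807 genes passed, none of the 3 members tested did, with log2 changes of 0.29 ± 0.28 SE for Tigit, -0.43 ± 0.23 for Tox and -0.38 ± 0.31 for Cd160. None had an unadjusted p under 0.05. None of the 9 members passed in myeloid cells by edgeR, where 0.0709% of 12697 genes did, and 6 had an unadjusted p under 0.05, as did 2050 of the 12697 genes. The largest change was that of Ctla4, from 13.7, 8.09 and 11.05 CPM to 14.6, 46.7 and 36.4 CPM (1.72 ± 0.43, adjusted p = 0.18). The make-up of the class differed between the groups, with 3629, 574 and 46 monocytes and macrophages, dendritic cells and neutrophils with αPD-1 and 8320, 1228 and 1842 with corin. Ctla4 was at 8.19 ± 3.12 against 12.6 ± 4.28 CPM (SD, n = 3 each) in the first of these, 21.5 ± 5.48 against 76.7 ± 36.8 CPM in the second and 52.3 ± 63.3 against 80.9 ± 38.3 CPM in the third. DESeq2, which called 370 genes in myeloid cells against 9 by edgeR, called Ctla4 (adjusted p = 0.0017) and Pdcd1 (adjusted p = 0.043). In myeloid cells without a UMI of T cell, B cell or melanoma markers the log2 changes were 1.09 for Ctla4 and 0.10 for Pdcd1, and neither passed.

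Within T cells the 9 genes were unevenly spread over 10 clusters. A cluster led by Prss2 and Gzmk (620 cells, 174 and 446 by group) had Pdcd1 at 410 CPM, Tigit at 315 CPM, Havcr2 at 211 CPM, Lag3 at 206 CPM and Tox at 755 CPM. A cluster led by Gzmf (321 cells) was similar in Pdcd1 (371 CPM), Havcr2 (249 CPM) and Lag3 (218 CPM), with Tox at 497 CPM. The cluster led by Klra6 (486 cells) had the highest Cd160, 146 CPM, and 47.6 CPM of Pdcd1. Tox was highest, at 2707 CPM, in a cluster of 184 cells led by Jazf1 with a low share of ribosomal protein UMIs. It also reached 987 CPM in the low-ribosomal Tn-like cluster led by Auts2, where Pdcd1 was at 20.6 CPM and Havcr2 at 1.58 CPM, Ctla4 at 77.7 CPM and Btla at 96.7 CPM.

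**Figure D4:**
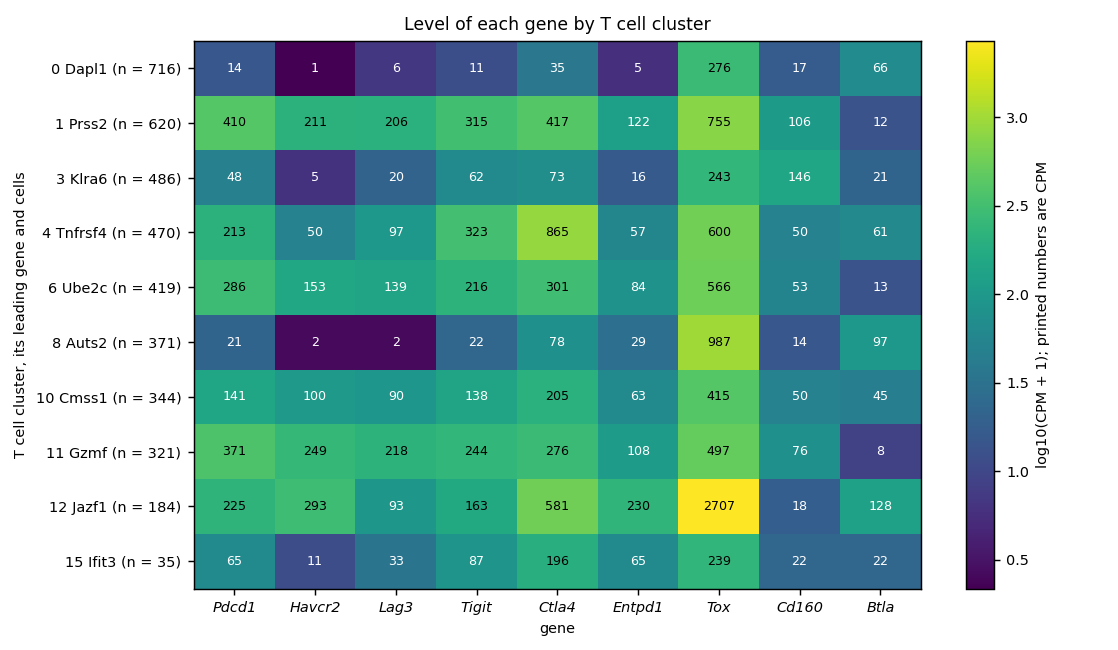
Level of the 9 genes in 10 T cell clusters, each named by number, leading gene and cells. Colour gives log10(CPM + 1) and the printed numbers are CPM over all cells of the cluster, with Tox highest in the Jazf1 cluster (2707) and Pdcd1 in the Prss2 cluster (410).

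Co-detection asks whether 1 cell carries several of the genes together. Each cell was thinned to 1000 UMIs, and the share with a UMI of at least 2 or at least 3 of Pdcd1, Havcr2, Lag3, Tigit, Ctla4, Entpd1 and Tox was tested with sample labels permuted exactly (two-sided), which with 3 against 3 cannot go below p = 0.1. At least 2 genes were seen in 19.1%, 32.6% and 31.0% of CD8 T cells with αPD-1 and in 34.8%, 37.4% and 47.3% with corin (exact p = 0.1, 0.15 after adjustment over 6 shares). The groups did not overlap. Without Tox among the counted genes the means were 17.8% and 23.8%, and the groups overlapped (exact p = 0.3). Without thinning the means were 46.4% and 75.6%. Outside the Tn-like clusters they were 43.3% ± 9.39 and 40.7% ± 6.02 (SD, n = 3 each), which overlapped. For at least 3 genes the CD8 T cell shares were 12.03% ± 3.82 and 14.2% ± 5.00 and overlapped as well.

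Foxp3+ T cells had the highest co-detection. At least 2 genes were seen in 48.7%, 47.1% and 54.8% of them with αPD-1 and in 62.5%, 60.0% and 69.2% with corin, and at least 3 in 15.4%, 20.6% and 22.6% against 37.5%, 40% and 30.8%. Neither share overlapped, on 31 to 39 and 13 to 50 cells per sample (exact p = 0.1, 0.15 after adjustment, for each). Without Tox among the counted genes the share with at least 3 overlapped, at means of 12.5% and 17.9% (exact p = 0.2). The share with at least 2 did not overlap without Tox (32.0% and 55.3%). With all 7 genes and thinning to 1500 UMIs both shares overlapped between the groups, and without thinning the share with at least 2 did. In CD4 T cells at least 2 were seen in 16.4% ± 7.97 and 32.1% ± 6.23, with overlap, and at least 3 in 4.50% ± 1.33 and 8.68% ± 1.19, without overlap (exact p = 0.1, 0.15 after adjustment). The share with at least 3 rests on 1 to 5 cells per sample, and its groups overlapped after thinning to 1500 UMIs. They also overlapped without Tox (1.44% and 3.89%) and with all 9 members counted (6.47% and 9.79%). Without Tox the share with at least 2 did not overlap (7.72% and 24.9%). In B cells, where most of the 7 genes were at or below what T cell marker UMIs would bring, the share with at least 2 was 0.56% and 0. It was 5.41% and 5.20% in NK cells, which carry Tox and Tigit, and 2.01% and 2.82% in myeloid cells, which carry Havcr2 and Entpd1.

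**Figure D5:**
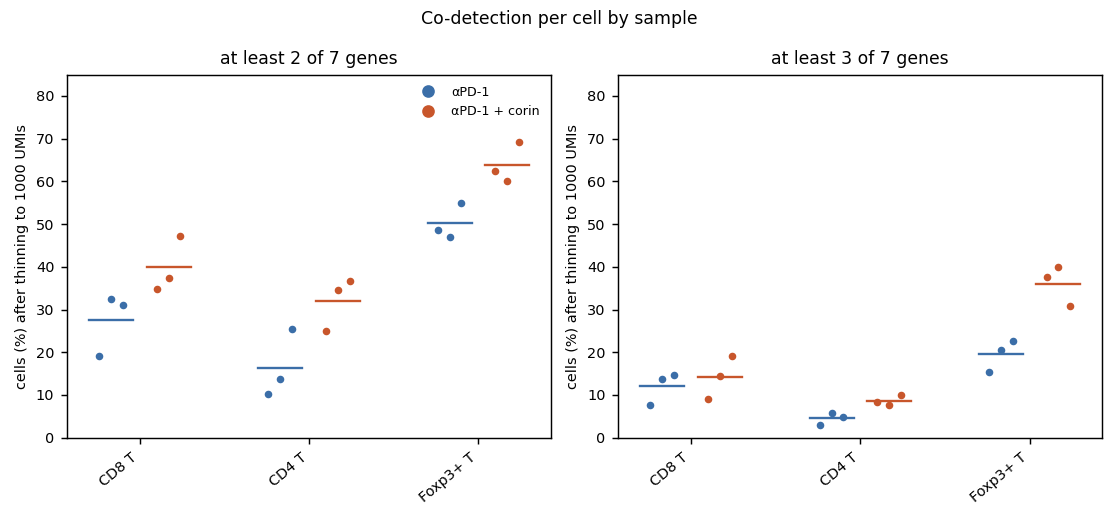
Share of CD8 T, CD4 T and Foxp3+ T cells with a UMI of at least 2 (left) and at least 3 (right) of 7 genes after thinning to 1000 UMIs, with 1 point per sample, αPD-1 in blue, αPD-1 + corin in orange and a bar at the mean of 3 samples. Foxp3+ T cells are highest, and the groups overlap for at least 3 genes in CD8 T cells.

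For pairs of genes in the same thinned CD8 T cell, the number of cells with both was set against the product of the single shares, as a description. Pdcd1 and Havcr2 were found together in 81 cells against a product of 53.7 (ratio 1.51, above 1 in 6 of 6 samples). Havcr2 and Entpd1 had a ratio of 1.80, and Havcr2 and Tigit of 1.68. Other pairs stood near or below 1: Tigit and Cd160 at 0.96, Entpd1 and Cd160 at 0.97, and Pdcd1 and Btla at 0.15, the last on 1 cell with both. With Tcf7, a factor of naive and memory-like T cells, the ratio was 0.19 for Pdcd1, 0.15 for Havcr2 and 0.37 for Tigit, with 1 sample above 1 for Pdcd1 (1.2) and for Tigit (1.89). Tox and Tcf7 stood at 0.74, below 1 in every sample, and Tox and Gzmb, the gene of the cytotoxic granzyme B, at 1.05.

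Other genes of the pathway were counted from lists. Of 12 other inhibitory receptors, 10 were tested in CD8 T cells and 1 rose, Lilrb4a (log2 change 0.93 ± 0.26 SE, adjusted p = 0.044), with a list median of 0.20 beside 0.01 over all genes. Over all genes 6.78% passed in these cells, as given above. Leaving out 1 sample ended the Lilrb4a call for each sample but the third corin sample (adjusted p = 0.063 to 0.19 by edgeR). The gene was at 593 ± 36.3 and 649 ± 181 CPM in myeloid cells against 42.01 ± 8.53 and 95.04 ± 37.3 CPM in CD8 T cells, whose macrophage marker UMIs summed to 662 to 820 CPM with αPD-1 and 753 to 1498 CPM with corin. It was not called among CD8 T cells with no UMI of another lineage (0.84, adjusted p = 0.080) or outside the Tn-like clusters (0.63, adjusted p = 0.58). Of 19 transcription factors linked or opposed to exhaustion, 18 were tested, 2 rose and 4 fell. Those that rose were Nr4a3 (0.87 ± 0.16, adjusted p = 0.0050) and Id2 (0.57 ± 0.13, adjusted p = 0.018), named after their values were seen, and the Id2 call ended without the first or the third αPD-1 sample or the third corin sample (adjusted p = 0.13, 0.079 and 0.10). The 4 that fell are known from naive and memory T cells: Lef1 (-2.69), Id3 (-2.39), Tcf7 (-2.27) and Bach2 (-2.18). Tn-like cells made up 34.3% to 46.7% of CD8 T cells with αPD-1 and 0.58% to 4.48% with corin. Outside them 10 genes were called in all, Id3 among them (-1.72, adjusted p = 0.022), while Lef1 (-1.36), Tcf7 (-1.10), Bach2 (-1.23), Nr4a3 (0.85) and Id2 (0.33) were not. Lef1 and Tcf7 are markers that name the Tn-like clusters, so for them leaving these clusters out is not a separate check. Among 12 ligands of the receptors, 8 were tested and H2-Ab1, a chain of the MHC class II ligand of LAG-3, fell (-0.66 ± 0.17). H2-Ab1 was at 2732 ± 109 CPM in B cells with αPD-1 against 85.3 ± 4.68 CPM in CD8 T cells, whose B cell marker UMIs differed between the groups as given above. Among CD8 T cells with no UMI of another lineage its log2 change was 0.03 (adjusted p = 0.99), and it was not called by DESeq2 (adjusted p = 0.26) or, by edgeR, without any 1 sample other than the first corin sample (0.050 to 0.15). Of 10 signal adaptors Pag1 fell (-0.86 ± 0.19), which ended without the first αPD-1 or the second corin sample (adjusted p = 0.088 and 0.058 by edgeR) and with no upper limit on genes (0.092). Of 5 effector-linked genes Gzmb rose (0.88 ± 0.21) and Tcf7 fell, and the Gzmb call ended without the first or the third αPD-1 sample or the third corin sample (0.065, 0.070 and 0.11), by DESeq2 (0.19) and with no upper limit on genes (0.13). Outside the Tn-like clusters neither Pag1 (-0.14) nor Gzmb (0.47) was called. In Foxp3+ T cells, where 0.497% of all genes passed, no gene of any of the 5 lists did.

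The genes whose levels followed each member most closely over 36 sums (6 lineages by 6 samples) were found from Pearson correlation of log2(CPM + 10), as a description, since lineages of 1 sample share its library. They were Cd3e for Pdcd1 (r = 0.93), Aopep for Havcr2 (0.85), Rgs16 for Lag3 (0.92), Tnfrsf9 for Tigit (0.98) and Cd5 for Ctla4 (0.96). For Entpd1 it was Cd80 (0.80), for Tox Cd247 (0.97), for Cd160 Fasl (0.93) and for Btla Ralgps2 (0.89).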

How the data were processed

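The 6 samples (3 αPD-1, 3 αPD-1 + corin) of CD45+ tumor cells were analysed from the deposited UMI counts. The authors made these counts with Cell Ranger 8.0 on GRCm39 from a 10x 5' kit, and the submitters' notes also name Seurat. The members, gene lists, tests and alternatives were chosen with earlier results of these data known.

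Barcodes needed 600 to 4000 detected genes and a mitochondrial share no higher than 10%, and the top Scrublet scores (0.4% per 1000 barcodes) were removed as doublets. Counts were transformed with SCTransform (Seurat 5.3.0, sctransform 0.4.2), and 2860 of 3000 variable genes, without members, markers and list genes, were clustered on 20 principal components. The resolution was 0.8, and T and NK cells were clustered again at 1.2, a value chosen after seeing the data because NK cells did not stand apart at 0.8. A name needed 3 markers, each with a UMI in at least 10% of cells and 1.5 times the mean of the other clusters. A cluster was mixed, and in no lineage, where 50% or more of the cells carried 2 or more UMIs from both the T and the B cell marker list.

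UMIs were summed per sample and lineage and tested with edgeR 4.0.16 (quasi-likelihood, TMM, filterByExpr, Benjamini-Hochberg over all genes tested) in R 4.3.3, with DESeq2 1.42.0 as an alternative. Shares of cells were compared after thinning to 1000 UMIs. The edgeR fits were also run on simulated counts with 200 genes changed 4-fold in each lineage. They found 97 of these in B cells, with 0 false calls, and 162 to 189 in the other lineages, with 4 to 23 false calls. All 9 members were named in every lineage. List genes were named when past the threshold in CD8 T or Foxp3+ T cells, at most 4 per list by size of change, and Nr4a3 and Id2 were added after their values were seen.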

Additional observations from a re-analysis of the deposited data

Results flagged for a closer look

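For 5 genes every αPD-1 + corin sample lay above every αPD-1 sample in a T lineage and below every αPD-1 sample in B cells, and the difference between the lineages was not tested. The share of all genes with this pattern was not counted, so the number of genes is only a description. The mean difference (αPD-1 + corin minus αPD-1) was 48.3 CPM for Pdcd1 and 78.0 CPM for Lag3 in Foxp3+ T cells, 54.1 CPM for Havcr2 and 101 CPM for Tigit in CD4 T cells, and 29.1 CPM for Cd160 in CD8 T cells. Havcr2 in CD4 T cells rests on 19 and 15 UMIs. Outside the Tn-like clusters, whose share differed between the groups, the last 3 overlapped: Havcr2 at 38.2 to 68.9 CPM with αPD-1 and 46.5 to 132 CPM with corin, Tigit at 115 to 199 and 139 to 274 CPM, and Cd160 at 58.4 to 78.0 and 75.01 to 101 CPM. In B cells it was -3.37 CPM for Pdcd1, -2.34 CPM for Lag3, -4.86 CPM for Havcr2, -3.35 CPM for Tigit and -0.92 CPM for Cd160. The B cell direction is a comparison with 0 that depth sets: the B cell sums of the corin samples hold 63464, 85810 and 19065 UMIs, in which the mean αPD-1 levels of 0.92 to 4.86 CPM would give less than 1 UMI per sample. The αPD-1 levels of Pdcd1, Lag3, Tigit and Cd160 in B cells also lay below what T cell marker UMIs would bring there, for Pdcd1 2.87 to 4.19 CPM against 9.63 to 13.2 CPM. No difference in B cells was detectable at this depth.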

How the results depend on the processing

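Of the called treatment changes, Btla in all T cells was called in all 20 alternatives (log2 change -2.46 to -1.86), Tigit in 17 of 20, Havcr2 in 13 and Cd160 in 10. Btla was called in 14 of 19 in CD8 T and 12 of 18 in B cells, and Tox in CD4 T cells in 7 of 20. The Btla change in CD4 T cells is a description and is not counted here. The replicate numbers do not pair the samples (correlations of same-numbered samples -0.37 to 0.24 over 7 lineages, for example 0.17, 0.13 and -0.17 in CD8 T and -0.10, -0.37 and -0.21 in myeloid cells). Only in Foxp3+ T cells (0.02, 0.03 and 0.02) did each number match itself best. With the replicate number as a block the genes called were 1483 in all T, 447 in CD8 T, 153 in CD4 T, 8 in Foxp3+ T, 47 in NK, 72 in B and 0 in myeloid cells. DESeq2 called 981, 234, 91, 0, 15 and 370 genes in all T, CD8 T, CD4 T, Foxp3+ T, NK and myeloid cells, and 19 for the difference of effects. Outside the Tn-like clusters 75, 10 and 31 genes were called in all T, CD8 T and CD4 T cells. There the log2 changes turned to -0.053 (Ctla4) and -0.072 (Entpd1) in all T, -0.15 (Entpd1) in CD8 T and -0.17 (Pdcd1) and -0.065 (Ctla4) in CD4 T cells, and the co-detection differences to -2.66 (at least 2, CD8 T), -4.88 (at least 3, CD8 T) and -0.13 points (at least 3, CD4 T). Without an upper limit on genes 768, 205, 17 and 1 genes were called in all T, CD8 T, NK and myeloid cells. There Tox in CD8 T was 0.028 and Ctla4 in Foxp3+ T -0.014. With no filter on low counts the calls were 910 in CD8 T, 23 in Foxp3+ T, 245 in myeloid cells, 850 for Foxp3+ T against CD8 T and 1130 for CD8 T against CD4 T, and Ctla4 in Foxp3+ T was -0.027. A ribosomal share of at least 5%, chosen after seeing the data, gave 1054 calls in all T and 4 in myeloid cells, and Tox 0.053 in CD8 T. A mitochondrial limit of 5% gave 7 in Foxp3+ T and 105 in B cells, and resolution 1.2 gave 90 in B cells. The Treg-like cluster gave Ctla4 -0.11, Entpd1 -0.35 and Tox -0.34. NK cells without a Cd3 UMI gave 16 calls, myeloid cells with no UMI of another lineage 5, monocytes and macrophages alone 26 and dendritic cells alone 43, with Havcr2 at 0.020. Resolution 0.4 turned Entpd1 in B cells to 0.027. No sample block gave 323 calls for Foxp3+ T against CD4 T and Tox -0.0064 for CD8 T against CD4 T, and RLE size factors gave -0.0089 there and Pdcd1 0.0099 for the difference of effects (DESeq2 0.025). Thinning to 1500 UMIs turned the detection differences to -0.60 (Entpd1, CD8 T), 1.25 (Tox, CD8 T), -0.60 (Ctla4, Foxp3+ T), 10.1 (Tox, Foxp3+ T), 0.51 (Pdcd1, NK), 1.85 (Lag3, NK), 7.71 (Tigit, NK) and 3.86 points (Ctla4, B), and no thinning to 6.63 (Tox, CD8 T), 0.76 (Cd160, CD4 T), -0.50 (Cd160, Foxp3+ T), 0.88 (Pdcd1, NK), 2.66 (Lag3, NK) and 0.23 (Tigit, NK). The causes were not tested.

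Leaving out 1 sample at a time, the calls ran from 795 to 1842 in all T, 182 to 643 in CD8 T, 80 to 155 in CD4 T, 0 to 22 in Foxp3+ T, 16 to 64 in NK, 67 to 151 in B and 0 to 793 in myeloid cells, from 219 to 587 for Foxp3+ T against CD4 T, 336 to 688 for CD8 T against CD4 T and 0 to 26 for the difference of effects. Log2 changes that crossed 0 ran from -0.29 to 0.051 (Tox, CD8 T), -0.38 to 1.10 (Pdcd1, CD4 T), -0.13 to 0.26 (Ctla4), -0.13 to 0.71 (Entpd1) and -0.032 to 0.25 (Tox, all in Foxp3+ T), -7.37 to 0.22 (Ctla4, B) and -0.094 to 0.15 (Tox, CD8 T against CD4 T). For the difference of effects they ran from -0.17 to 0.14 (Pdcd1), -0.32 to 0.78 (Havcr2), -0.55 to 0.017 (Tigit), -0.20 to 0.30 (Entpd1), -0.020 to 0.46 (Tox) and -5.70 to 0.33 (Cd160). Detection differences ran from -4.06 to 2.26 (Tox, CD8 T), -10.1 to 0.74 (Tox, CD4 T), -1.78 to 0.033 (Cd160, CD4 T), -0.050 to 6.33 (Havcr2, Foxp3+ T), -10.4 to 3.07 (Tox, Foxp3+ T), -0.63 to 0.28 (Pdcd1, NK), -0.94 to 0.62 (Lag3, NK), -0.15 to 2.23 (Ctla4, NK) and -0.90 to 0.29 points (Ctla4, B), and at least 3 genes in CD8 T from -0.29 to 4.71 points. Clustering T and NK cells again at 0.8, chosen after seeing the data, gave no NK lineage and was not run for NK cells. The 107 B and 70 CD4 T cells of the corin samples limit what depth can show there.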
